A study of Mus musculus with 6 samples.

Results

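The mitochondrial ribosomal protein genes were taken by name, as the rows of the deposited expression table whose symbol starts with Mrpl or Mrps followed by a digit, with pseudogene symbols that carry -ps left out. This gave 78 genes of 24972 rows, 49 with an Mrpl symbol and 29 with an Mrps symbol. The rule uses names only, though the family was chosen with earlier results of these data known. RNA was sequenced from untreated bone marrow-derived macrophages, which are grown from marrow monocytes in medium to which L929 cell supernatant adds the macrophage growth factor M-CSF. The 3 Lcn10-KO libraries came from mice in which *Lcn10*, a gene for a secreted lipocalin, is knocked out, and the 3 WT libraries came from wild-type mice. Both groups were cultured alike and received no stimulus. The labels give neither the strain, age or sex of the mice nor how the knockout allele was made, and they do not say whether the 3 libraries of a genotype came from separate mice. The p-values therefore rest on differences between these libraries, and part of that spread may be technical.

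Mitochondria build a small set of membrane proteins of the respiratory chain and ATP synthase on ribosomes of their own. The rRNAs of this mitoribosome are encoded by mitochondrial DNA, while its proteins are encoded by scattered nuclear genes, translated in the cytosol and imported. Some of them have counterparts in bacterial ribosomes and others are specific to mitochondria. In macrophages, oxidative metabolism and with it the mitochondrial machinery are known to shift with the activation state.

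Values are read counts scaled by the authors, called normalized counts here, and the 6 libraries held roughly 18000000 to 24900000 reads each. *Lcn10* was listed at 0 in the 3 Lcn10-KO and the 3 WT libraries, so it cannot check the genotype labels. Of 10 macrophage markers, all were tested. In Lcn10-KO 2 were higher, against 4.70% of all genes tested, and 2 lower, against 5.14%. Their summed level was 304000 to 318000 in Lcn10-KO and 290000 to 300000 in WT, and these ranges did not overlap. Markers of lymphocytes summed to 8.46 to 9.58 in Lcn10-KO and 3.3 to 7.96 in WT, with *Cd8a* and *Ncr1* at 0, and those of dendritic cells to 8.61 to 15.4 in Lcn10-KO and 10.3 to 16.4 in WT. Summed markers of endothelial cells (322 to 764 in Lcn10-KO, 325 to 463 in WT), fibroblasts (3790 to 4270 in Lcn10-KO, 2880 to 4470 in WT), granulocytes (258 to 290 in Lcn10-KO, 211 to 293 in WT, with *Ly6g* at 0) and erythroid, mast and megakaryocyte cells (2780 to 2860 in Lcn10-KO, 2490 to 3340 in WT, with *Hbb-bs* at 0) overlapped between the genotypes. The part of these differences in the values below was not tested. WT replicate 1 stood apart from the other libraries. It held the highest value of the 6 libraries in 29.1% of the tested genes and the lowest in 27.6%.

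The comparison asks whether the loss of *Lcn10* goes with a different supply of mitoribosomal protein mRNA in resting macrophages. No member of the family passed the test in either direction, and the levels of the genes in Lcn10-KO stayed close to those in WT. All 78 genes were above the filter on low values, a normalized count of at least 10 in at least 3 libraries, and were tested with limma on log2(value + 1) with Benjamini-Hochberg adjustment over all 12091 genes tested. At an adjusted p under 0.05, 0 members were higher in Lcn10-KO, against 4.70% of all genes tested, and 0 were lower, against 5.14%. Over all genes 9.84% were called, and among the 4843 tested genes within the members' range of average level 8.86% were. At an unadjusted p under 0.05, 2 members were higher (*Mrpl34* and *Mrps33*), against 12.4% of all genes, and 5 were lower (*Mrpl12*, *Mrps18b*, *Mrpl23*, *Mrpl42* and *Mrps5*), against 13.9%. The values of the genotypes did not overlap in 4 members that were higher in Lcn10-KO, *Mrpl34*, *Mrps33*, *Mrpl1* and *Mrpl44*, against 15.5% of all genes. They did not overlap in 9 that were lower, *Mrpl12*, *Mrps5*, *Mrpl57*, *Mrpl42*, *Mrps35*, *Mrps22*, *Mrpl49*, *Mrps17* and *Mrpl50*, against 16.9%. Each of these counts lay below its share over all genes. In bulk RNA, fewer cells of a kind and less RNA per cell cannot be told apart.

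The intervals put a bound on what the libraries could have missed. The log2 fold changes of the 78 members, Lcn10-KO minus WT, ran from −0.29 to 0.21, with a median of −0.03 and a median size of 0.0634, against a median size of 0.10 over all genes tested and 0.0857 over those in the same range of level. Their SD was 0.0847, against 0.26 over all genes and 0.17 over those in the same range. Of the members, 27 had a positive and 51 a negative fold change. The median standard error was 0.065, so most of these differences were about the size of their own error. For 61 members the 95% interval lay within a 1.2-fold change either way and for all 78 within 1.5-fold. The lowest bound of any interval was −0.53 (*Mrps18b*) and the highest 0.35 (*Mrpl34*). Over 15 alternative fits, 77 or 78 intervals lay within 1.5-fold, and *Mrps18b* was the exception in the 4 fits with 77. Limma without the mean-variance trend also called 0 members, with 2 at an unadjusted p under 0.05, but it called 14 of the 12091 genes in all. Without Lcn10-KO replicate 1, 2 or 3 the calls over all genes numbered 566, 207 and 175 in place of 1190, with 0 members called in each. Without WT replicate 2, 3 members were called lower, *Mrpl12*, *Mrps18b* and *Mrps28*, against 7.10% of all genes called lower in that fit.

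**Figure D1:**
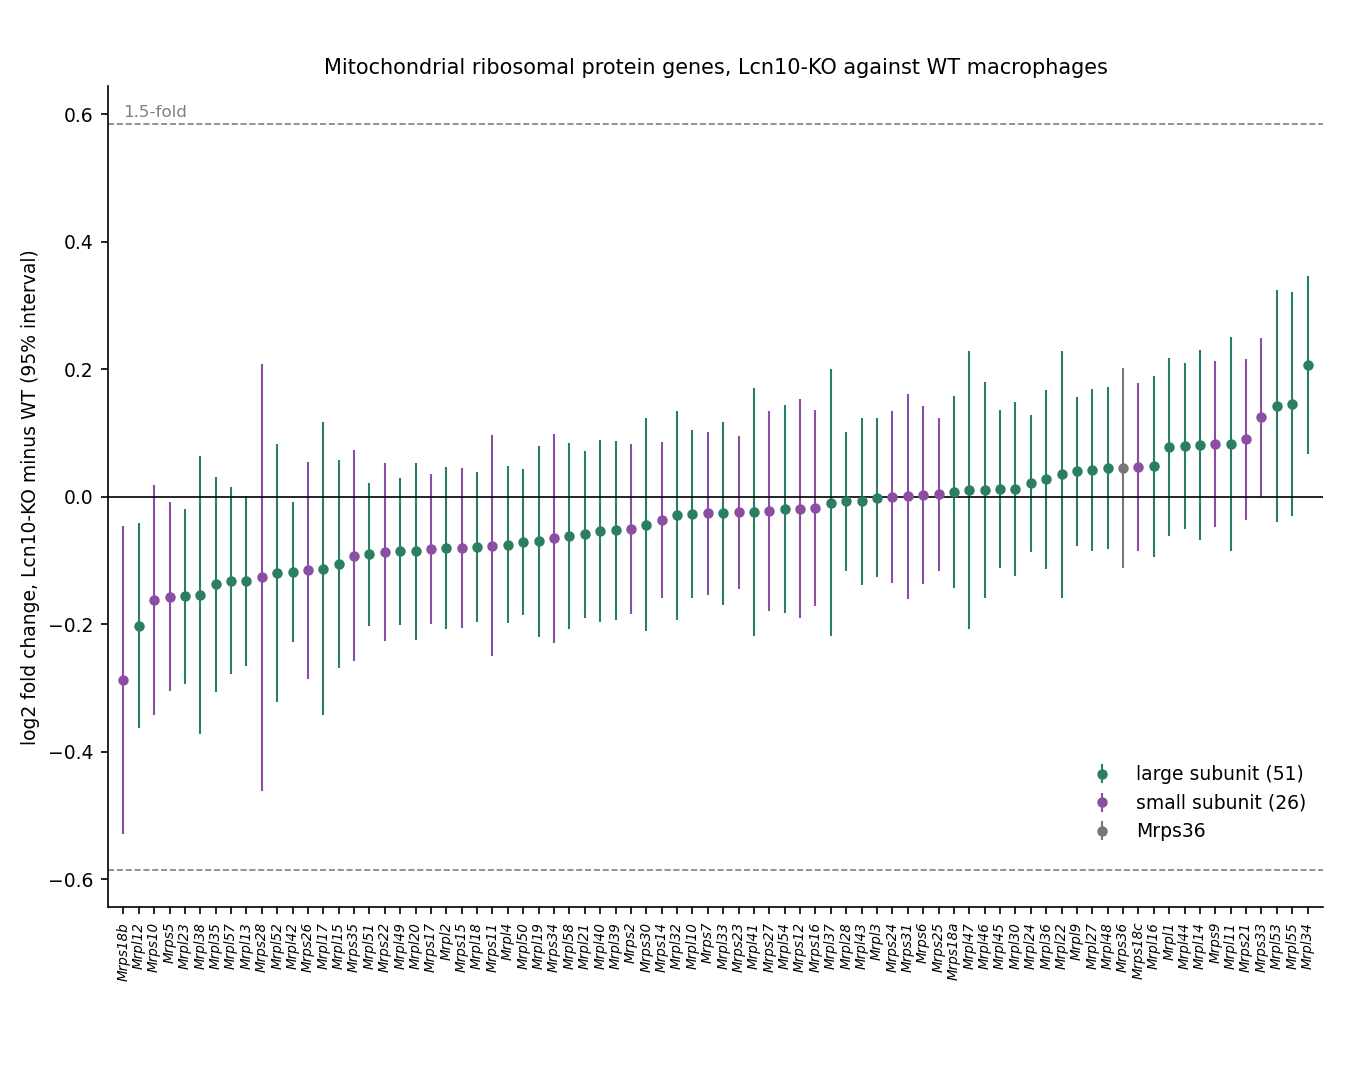
Log2 fold changes (Lcn10-KO minus WT) of the 78 genes with their 95% intervals from the limma fit, in order of size along the horizontal axis and coloured by subunit. Intervals of all 78 genes lie between the dashed lines at 1.5-fold, the lowest gene is *Mrps18b* at −0.29 and the highest *Mrpl34* at 0.21.

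The lowest fold change was found in the small subunit. *Mrps18b*, which encodes a form of ribosomal protein S18 and has sister genes in *Mrps18a* and *Mrps18c*, had 541, 491 and 452 normalized counts in the Lcn10-KO libraries, against 716, 540.45 and 565 in WT. The genotypes overlapped, since Lcn10-KO replicate 1 was level with WT replicate 2, and WT replicate 1 was the highest of the 6. The log2 fold change was −0.29 ± 0.11 (SE, 95% interval −0.53 to −0.05, limma adjusted p = 0.126). The sister genes had log2 fold changes of 0.05 ± 0.06 (SE) in *Mrps18c* (limma adjusted p = 0.678) and 0.01 ± 0.07 (SE) in *Mrps18a*, whose product sits in the large subunit (limma adjusted p = 0.964). The difference between the sister genes was not tested. *Mrps10*, with a bacterial S10 counterpart at the head of the small subunit, had 416, 369.8 and 379 normalized counts in Lcn10-KO and 484, 422 and 401 in WT. Lcn10-KO replicate 1 lay between the WT values, and the log2 fold change was −0.16 ± 0.08 (SE, limma adjusted p = 0.24). *Mrps5* encodes a protein whose bacterial counterpart takes part in accurate decoding. Its 526, 472 and 540.4 normalized counts in Lcn10-KO all lay below the 594, 554 and 565 in WT, with a log2 fold change of −0.16 ± 0.07 (SE, limma adjusted p = 0.166). Single libraries weighed on these values, since *Mrps18b* had −0.16 and *Mrps10* −0.08 without WT replicate 1, and *Mrps5* had −0.10 without Lcn10-KO replicate 2.

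In the large subunit, *Mrpl12* and *Mrpl23* were the lowest. *Mrpl12* encodes the protein of the flexible stalk that recruits translation factors. Its values were 944, 909 and 951 normalized counts in Lcn10-KO, against 1217, 970.2 and 1052 in WT. The Lcn10-KO libraries lay close together and under all WT libraries, of which replicate 1 was far above the others. The log2 fold change was −0.20 ± 0.07 (SE, 95% interval −0.36 to −0.04, limma adjusted p = 0.104). Without WT replicate 2 it was −0.28 (limma adjusted p = 0.0184), and without WT replicate 1 it was −0.11 (limma adjusted p = 0.254). *Mrps18b* had −0.37 without WT replicate 2 (limma adjusted p = 0.0498) and −0.16 without WT replicate 1 (limma adjusted p = 0.214), so these calls depend on which WT library is kept. *Mrpl23*, whose bacterial counterpart sits at the exit of the peptide tunnel, had 750.4, 674 and 664 normalized counts in Lcn10-KO and 800.02, 739 and 787 in WT. The groups overlapped in a single pair of values, and the log2 fold change was −0.16 ± 0.06 (SE, limma adjusted p = 0.139). The widest interval belonged to *Mrps28*, of the small subunit, at −0.46 to 0.21. It had 277, 249.7 and 286 normalized counts in Lcn10-KO and 338, 227 and 337 in WT, where replicate 2 lay below all other libraries.

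The highest fold changes were no larger. *Mrpl34* encodes a small protein of the large subunit with a bacterial counterpart, and had the smallest adjusted p of the family. It had 482.5, 468 and 487 normalized counts in Lcn10-KO, against 399, 424.5 and 423 in WT, and the genotypes did not overlap. The log2 fold change was 0.21 ± 0.06 (SE, 95% interval 0.07 to 0.35, limma adjusted p = 0.0594), and over the 15 alternatives it ranged from 0.18 to 0.22 with adjusted p from 0.0531 to 0.171. *Mrpl55* and *Mrpl53* encode mitochondria-specific proteins of the large subunit. *Mrpl55* had 348, 323 and 300.1 normalized counts in Lcn10-KO and 288, 287 and 301 in WT, and Lcn10-KO replicate 3 lay just under WT replicate 3 (log2 fold change 0.15 ± 0.08, SE, limma adjusted p = 0.278). *Mrpl53* had 361, 338 and 364 normalized counts in Lcn10-KO and 351, 291 and 324 in WT, which overlapped as well (0.14 ± 0.08, SE, limma adjusted p = 0.313). In the small subunit, the mitochondria-specific *Mrps33* had 919, 889.9 and 873 normalized counts in Lcn10-KO, all above the 776, 818 and 869 in WT, though by little in the nearest pair. Its log2 fold change was 0.12 ± 0.06 (SE, limma adjusted p = 0.189). *Mrps21*, with a bacterial counterpart, had 1056, 1059 and 973 normalized counts in Lcn10-KO and 907, 992 and 1002 in WT. Lcn10-KO replicate 3 lay under 2 of the WT libraries, and the log2 fold change was 0.09 ± 0.06 (SE, limma adjusted p = 0.36). Here too a single library moved the value by over 1.5 times, to 0.04 for *Mrps21* without WT replicate 1, to 0.07 for *Mrpl53* without WT replicate 2 and to 0.09 for *Mrpl55* without Lcn10-KO replicate 1.

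**Figure D2:**
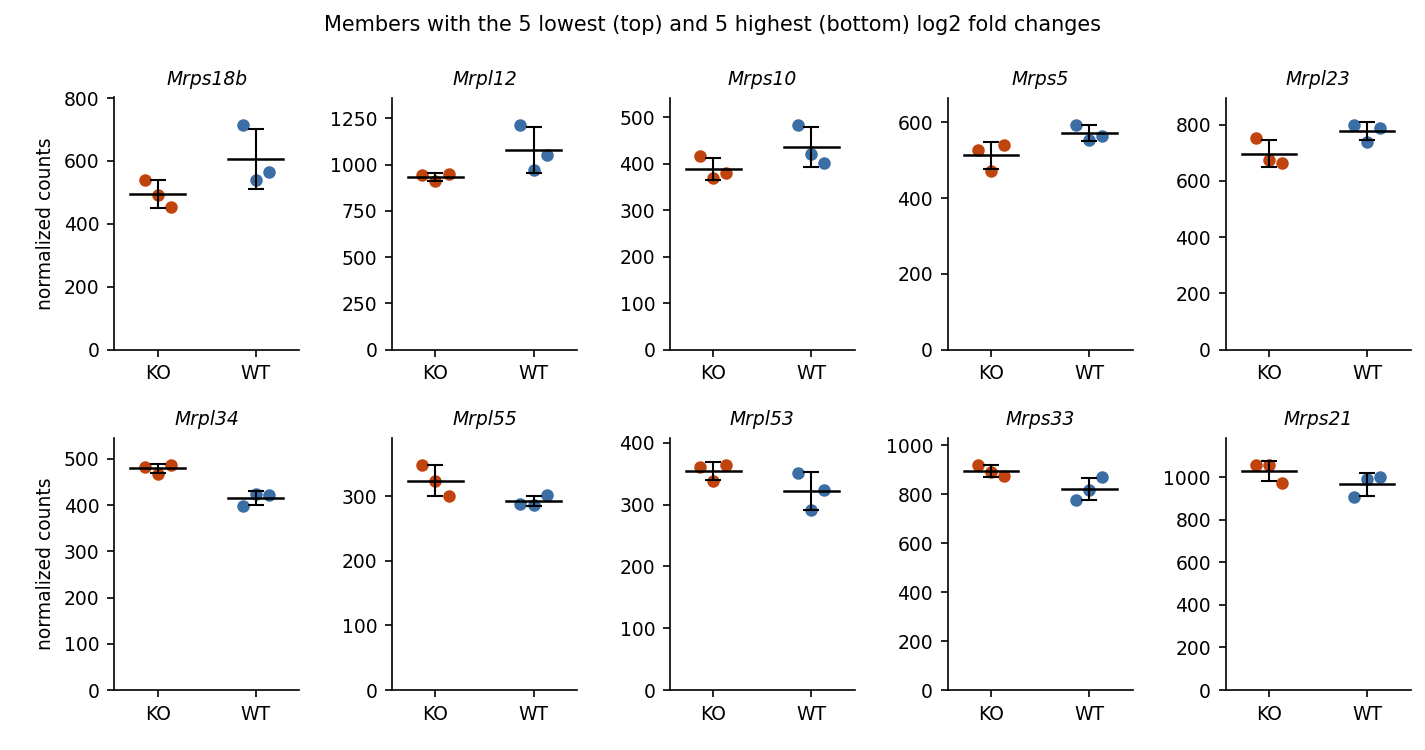
Normalized counts of the 5 members with the lowest (upper row) and the 5 with the highest log2 fold changes (lower row), Lcn10-KO left of WT in each panel. Points are libraries in replicate order, the long line is the mean and the error bar 1 SD (n = 3 each). Of the 10 genes, *Mrpl12*, *Mrps5*, *Mrpl34* and *Mrps33* have groups that do not overlap.

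The mRNA of the family was also summed by library, which describes mRNA and not the supply of ribosomes. These sums were not corrected for transcript length, so genes with high counts weigh most. The 78 genes summed to 49744, 48804 and 47235 normalized counts in the Lcn10-KO libraries and 51018, 47957 and 50432 in the WT libraries. The genotypes overlapped, with Lcn10-KO replicate 3 the lowest and WT replicate 1 the highest of the 6. The means were 48594 ± 1267 in Lcn10-KO and 49803 ± 1625 in WT (SD, n = 3 each), a ratio of 0.976. Of the 78 members, 51 encode proteins of the large subunit, among them *Mrps18a* and *Mrps30* in spite of their symbols, and 26 encode proteins of the small subunit. The remaining *Mrps36* is named as a ribosomal protein, but its product is a subunit of the 2-oxoglutarate dehydrogenase complex, and it had a log2 fold change of 0.05 ± 0.07 (SE, limma adjusted p = 0.746). Genes of the large subunit summed to 33330, 33057 and 31736 normalized counts in Lcn10-KO, against 34403, 32320 and 33983 in WT, a ratio of the means of 0.974. Genes of the small subunit summed to 15778, 15106 and 14887 in Lcn10-KO, against 16007, 15084 and 15775 in WT, a ratio of 0.977. Both subunits thus kept nearly the same proportion, and the summed large over summed small subunit mRNA was 2.11 to 2.19 in Lcn10-KO and 2.14 to 2.15 in WT. The members took 0.230% to 0.242% of all normalized counts in Lcn10-KO libraries and 0.233% to 0.249% in WT libraries.

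The members also differed between libraries of the same genotype. Lcn10-KO replicate 3 held the lowest of the 6 values in 33 of the 78 members, although it was the lowest in 16.7% of all tested genes. WT replicate 2 was the lowest in 19 members, against 13.8% of all genes, and WT replicate 1 the highest in 28, against 29.1% of all genes. The median deviation of the members from their own mean, on the log2 scale, was 0.02, −0.01 and −0.05 in Lcn10-KO replicates 1 to 3 and 0.04, −0.03 and 0.03 in WT replicates 1 to 3. The medians of the genotypes overlapped, and without Lcn10-KO replicate 3 the median fold change of the members was −0.0086 in place of −0.0258. It was −0.0502 without Lcn10-KO replicate 1, −0.0133, −0.0539 and −0.0162 without WT replicates 1, 2 and 3, and negative in each case. Within a genotype the genes were measured closely, with a median coefficient of variation of 4.61% in Lcn10-KO and 4.85% in WT.

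**Figure D3:**
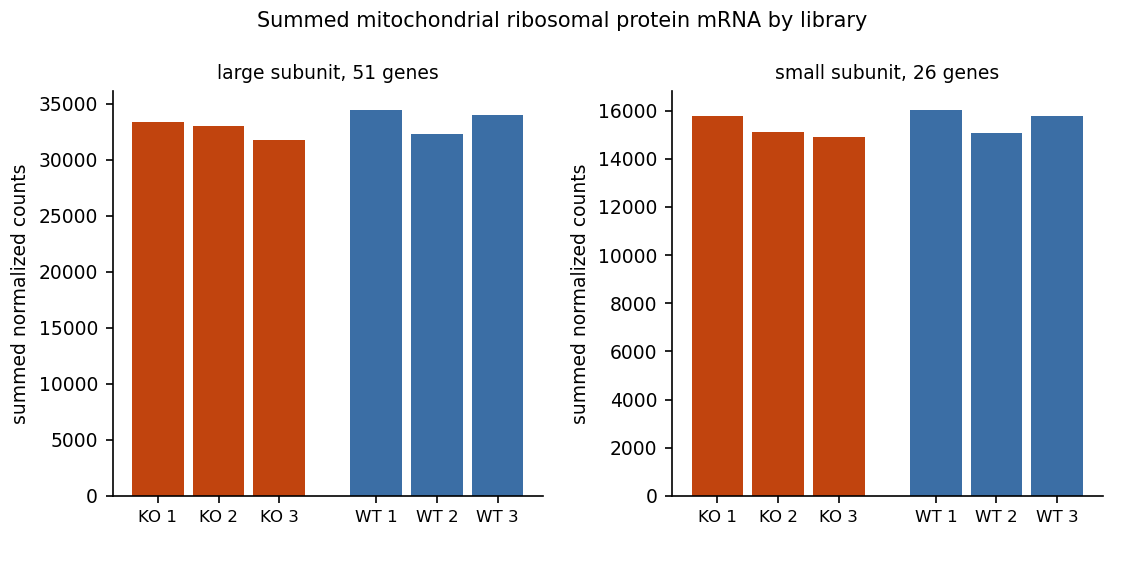
Summed normalized counts of the 51 large subunit genes (left) and the 26 small subunit genes (right) in each library, Lcn10-KO left of WT, with bars from 0. Each panel shows overlapping genotypes, with the lowest large subunit sum in Lcn10-KO replicate 3 (31736) and the highest in WT replicate 1 (34403).

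Genes with a bacterial counterpart and genes specific to mitochondria gave similar values. The median log2 fold change was −0.02 over the 30 large subunit genes with a counterpart and −0.04 over the 21 mitochondria-specific ones, and −0.04 and −0.02 over the 17 and 9 genes of the small subunit. Their summed levels in Lcn10-KO were 0.971 to 0.988 of those in WT. No class held a called gene.

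Levels differed far more between members than between genotypes. Compared per kb of the principal transcript, whose length ran from 418 to 7300 bases with a median of 1302, the WT mean ranged from 67.9 to 2490 normalized counts per kb. The median over members was 411, against 212 over the tested genes with a known length, and 68.8% of those genes lay below the median member. The 5 highest members were *Mrpl33* (2450 per kb in Lcn10-KO and 2490 in WT), *Mrps21* (2110 in Lcn10-KO and 1980 in WT), the mitochondria-specific *Mrpl42* (1420 in Lcn10-KO and 1540 in WT), *Mrpl20* (1410 in Lcn10-KO and 1500 in WT) and *Mrps18c* (1200 in Lcn10-KO and 1160 in WT). The 5 lowest were *Mrpl47* (68.1 per kb in Lcn10-KO and 67.9 in WT), *Mrps35* (68.5 in Lcn10-KO and 73.0 in WT), *Mrpl17* (76.2 in Lcn10-KO and 82.7 in WT), *Mrps25* (123 in Lcn10-KO and 122 in WT) and *Mrpl1* (130 in Lcn10-KO and 123 in WT), of which *Mrpl1* encodes the protein of the stalk near the tRNA exit site. In each of these 10 genes the genotypes were far closer to each other than the high genes were to the low ones. *Mrpl33* and *Mrpl47*, the extremes, had per-kb levels in WT of 2490 ± 130 and 67.9 ± 7.88 (SD, n = 3 each). The order of the members rests in part on the annotated lengths. In the order named, the principal transcripts had 478, 488, 666, 764 and 638 bases in the 5 highest members. In the 5 lowest they had 3364, 4162, 7300, 6073 and 3556. Before division by length, *Mrps25* had a WT mean of 743 normalized counts, above the median member at 607, and single values of the family ran from 203.6 to 1288. Principal transcripts may be longer or shorter than those the cells used, which would change this order. It would move a per-kb level in both genotypes alike if both use the same transcripts.

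**Figure D4:**
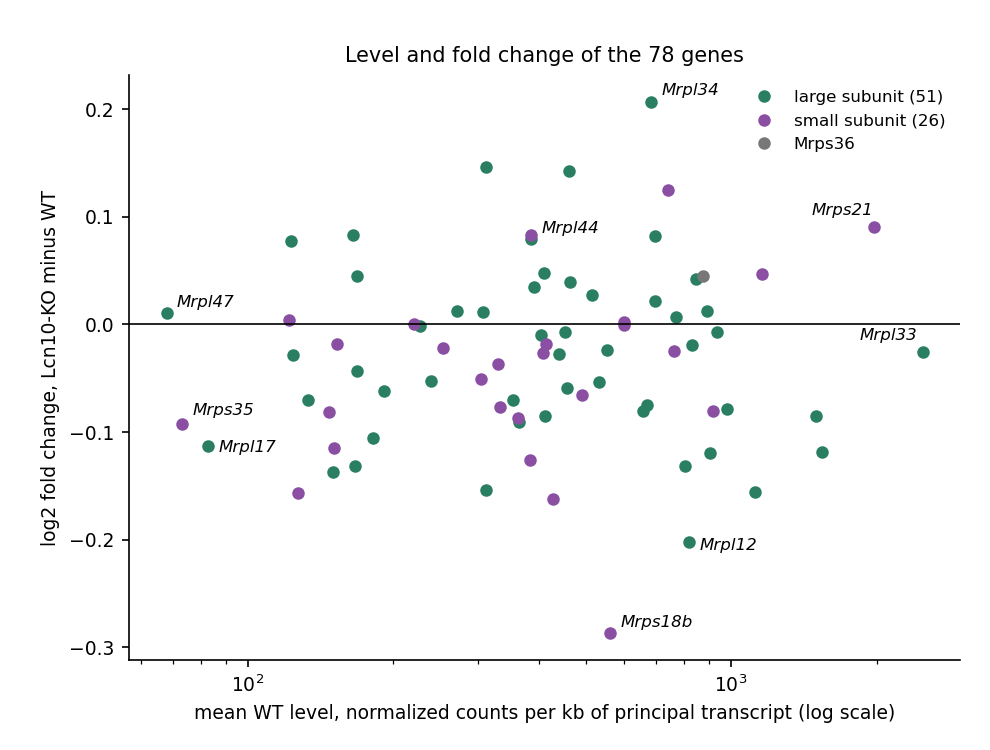
Log2 fold change (Lcn10-KO minus WT) of the 78 genes against the mean WT level in normalized counts per kb of principal transcript, on a log axis, coloured by subunit. Levels run from 67.9 (*Mrpl47*) to 2490 per kb (*Mrpl33*), and fold changes stay between −0.29 (*Mrps18b*) and 0.21 (*Mrpl34*).

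Many nuclear genes for mitochondrial proteins have promoters that bind NRF1, the ETS family factor GABP (also called NRF2) or YY1, and the promoters of the members were searched for these sequences. RefSeq promoter windows of 250 bases before to 50 after the start (GRCm38.p6) were matched for 69 of the 78 members. The ETS site CCGGAAG or its reverse CTTCCGG occurred in 26 members, 37.7%, against 20.9% of 9580 tested genes with a window and 8.86% of all 32851 promoters. The YY1 core AAGATGGC or GCCATCTT occurred in 12, 17.4%, against 5.54% and 2.75%. The NRF1 core GCGCATGC or GCATGCGC occurred in 8, 11.6%, against 6.25% and 2.71%. At least 1 of these 3 motifs was found in 38 members, 55.1%, against 29.5% of tested genes and 13.3% of all promoters. The E-box CACGTG, which reads the same on both strands and is bound by MYC and related factors, occurred in 5 members, 7.25%, against 12.1% and 7.15%. The motifs do not contain one another, a match describes letters only, and the shares were not tested. GC content of the windows was similar, at 58.8% ± 7.47 in members and 60.8% ± 8.9 in tested genes (SD over windows). The median log2 fold change was −0.03 over the 38 members that held an ETS, YY1 or NRF1 motif and 0.00 over the 31 that held none of them. Windows of the members with the lowest and the highest fold change are shown, though neither member passed the test. A relation between motifs and fold changes was not tested. Matches are in capitals, 5′ to 3′ on the strand of the gene, with position 251 at the start. *Mrps18b* (chr17:35916391-35916690, minus strand) holds the NRF1 core at positions 28 and 279 and the ETS site at 294, and *Mrpl34* (chr8:71464676-71464975, plus strand) holds the ETS site at 214.
*Mrps18b*: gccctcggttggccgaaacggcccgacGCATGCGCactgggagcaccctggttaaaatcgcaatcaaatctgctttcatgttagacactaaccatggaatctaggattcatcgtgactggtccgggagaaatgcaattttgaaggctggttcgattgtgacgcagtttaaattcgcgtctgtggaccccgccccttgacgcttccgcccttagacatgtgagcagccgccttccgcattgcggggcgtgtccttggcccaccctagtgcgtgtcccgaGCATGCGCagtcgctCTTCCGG
*Mrpl34*: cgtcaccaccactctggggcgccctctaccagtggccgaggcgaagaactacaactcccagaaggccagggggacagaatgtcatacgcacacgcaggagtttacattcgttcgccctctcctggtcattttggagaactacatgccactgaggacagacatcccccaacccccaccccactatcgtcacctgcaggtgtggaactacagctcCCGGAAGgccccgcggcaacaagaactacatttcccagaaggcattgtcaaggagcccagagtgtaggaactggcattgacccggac

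Members often stand head to head with another gene. A protein-coding gene on the opposite strand, with its start at most 1000 bases upstream or overlapping by at most 300 bases, was annotated for 23 of the 78 members (29.5%) and for 1582 of 11565 tested protein-coding genes (13.7%). In the pairs of the members the median distance between the starts was 66 bases, with overlaps counted as negative. Among the 22 partners that were tested, 3 passed the test, beside 9.84% of all genes tested, so the count shows nothing particular to the partners. Each of the 3 was higher in Lcn10-KO, and its mitoribosomal neighbour did not pass.

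The clearest contrast was between *Mrpl44* and *Wdfy1* on chromosome 1, whose transcripts start inside each other and share 126 bases on opposite strands. *Mrpl44* (79776018 to 79781445, plus strand, GRCm38) encodes a mitochondria-specific protein with a ribonuclease III-like fold, and *Wdfy1* (79702262 to 79776143, minus strand) encodes an endosomal adaptor of Toll-like receptor signalling. *Wdfy1* had 1005, 912 and 1006 normalized counts in Lcn10-KO, against 394, 399.9 and 429 in WT, and the groups were far apart. It rose by 1.26 ± 0.06 on the log2 scale (SE, limma adjusted p = 8.43e-07), to 239% of the WT level, and was called in all 15 alternatives. *Mrpl44* had 576, 595 and 571 normalized counts in Lcn10-KO, against 526, 556 and 566 in WT. Its groups did not overlap, but its log2 fold change was 0.08 ± 0.06 (SE, 95% interval −0.05 to 0.21, limma adjusted p = 0.442). The upper end of that interval lies far below the change of *Wdfy1*, though the difference between the genes was not itself tested. Since the labels do not give the strain of the mice, a part of strain in the *Wdfy1* difference was not tested either. The strand setting of the counting is not given in the sources used here, so reads from the shared bases cannot be assigned to either gene with certainty.

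The other pairs were *Mrpl2* with *Klc4* and *Mrpl41* with *Pnpla7*. *Mrpl2* encodes the counterpart of bacterial L2, near the site of peptide bond formation, and starts 207 bases from *Klc4*, a kinesin light chain gene, on chromosome 17. *Klc4* had 1094, 1188 and 1215 normalized counts in Lcn10-KO, against 832, 1045 and 934 in WT, and its log2 fold change was 0.32 ± 0.08 (SE, limma adjusted p = 0.0304). The call was lost in 5 alternatives, without Lcn10-KO replicate 2 (0.127) or 3 (0.126), without WT replicate 3 (0.0764), without the trend (0.148) and with GC and length trends removed (0.0566). *Mrpl2* had 661, 636 and 622 normalized counts in Lcn10-KO, against 685, 697 and 646 in WT. Its groups overlapped and its fold change had the opposite sign, −0.08 ± 0.06 (SE, limma adjusted p = 0.424). *Mrpl41* encodes a mitochondria-specific protein of the large subunit and starts 935 bases from *Pnpla7*, a lysophospholipase gene, on chromosome 2. *Pnpla7* had 1886, 2002 and 1985 normalized counts in Lcn10-KO, against 1426, 1634 and 1664 in WT, with a log2 fold change of 0.32 ± 0.06 (SE, limma adjusted p = 0.00887). That call was lost without Lcn10-KO replicate 2 (0.0621) or 3 (0.0619) and without the trend (0.117). Where the pair lies relative to the knocked-out *Lcn10* gene was not examined, and a part of the knockout allele itself in the *Pnpla7* call was not tested. *Mrpl41* had 468, 405 and 395 normalized counts in Lcn10-KO and 446, 381 and 463 in WT, which overlapped fully (−0.02 ± 0.09, SE, limma adjusted p = 0.902). Of the other 19 tested partners none passed by limma, and 1 of them, *Hira* beside *Mrpl40*, had an unadjusted p under 0.05 (0.012, adjusted p = 0.0818). Among those partners are genes of the same machinery, such as *Sars2*, the mitochondrial seryl-tRNA synthetase, beside *Mrps12*, and *Ndufs6*, a subunit of respiratory complex I, beside *Mrpl36*. *Mrps12*, whose bacterial counterpart helps to check codon pairing, had 371, 346 and 365 normalized counts in Lcn10-KO, against 398, 364 and 335.5 in WT. *Sars2* had 219.8, 216 and 211 normalized counts in Lcn10-KO, under the 283, 229 and 220.03 in WT. Neither passed, with log2 fold changes of −0.02 ± 0.08 (SE, limma adjusted p = 0.915) and −0.17 ± 0.10 (SE, limma adjusted p = 0.336).

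The promoter windows of 3 members with a head-to-head partner are printed to show the sequence around these neighbouring starts. The *Mrpl44* window (chr1:79775768-79776067, plus strand, GRCm38.p6) lies wholly within the annotated *Wdfy1* gene and does not reach the *Wdfy1* start at 79776143, has a GC content of 42.3% and held none of the 4 motifs. The *Mrpl2* window (chr17:46645971-46646270, plus strand) holds the E-box at position 120, between the starts of *Klc4* and *Mrpl2*. The *Mrps12* window (chr7:28741772-28742071, minus strand) holds the YY1 core, on the reverse strand, at position 52 and the ETS site at 252. Matches are in capitals as before.
*Mrpl44*: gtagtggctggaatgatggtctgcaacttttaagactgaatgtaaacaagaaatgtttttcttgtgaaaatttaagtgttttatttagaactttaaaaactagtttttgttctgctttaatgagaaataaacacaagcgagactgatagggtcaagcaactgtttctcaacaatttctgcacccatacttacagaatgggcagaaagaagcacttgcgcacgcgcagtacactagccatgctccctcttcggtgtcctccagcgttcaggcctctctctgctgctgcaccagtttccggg
*Mrpl2*: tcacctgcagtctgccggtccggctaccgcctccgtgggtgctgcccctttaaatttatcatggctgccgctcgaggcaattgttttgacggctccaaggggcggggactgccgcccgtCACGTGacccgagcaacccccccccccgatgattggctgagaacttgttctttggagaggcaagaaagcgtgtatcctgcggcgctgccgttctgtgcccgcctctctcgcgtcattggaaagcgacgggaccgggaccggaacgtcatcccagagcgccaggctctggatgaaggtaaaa
*Mrps12*: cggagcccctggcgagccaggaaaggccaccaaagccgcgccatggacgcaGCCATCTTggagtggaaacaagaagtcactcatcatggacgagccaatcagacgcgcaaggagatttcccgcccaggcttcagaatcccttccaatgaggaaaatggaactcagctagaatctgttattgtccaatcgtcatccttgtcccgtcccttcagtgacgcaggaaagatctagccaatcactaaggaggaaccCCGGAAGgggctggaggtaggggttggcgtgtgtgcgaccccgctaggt

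**Figure D5:**
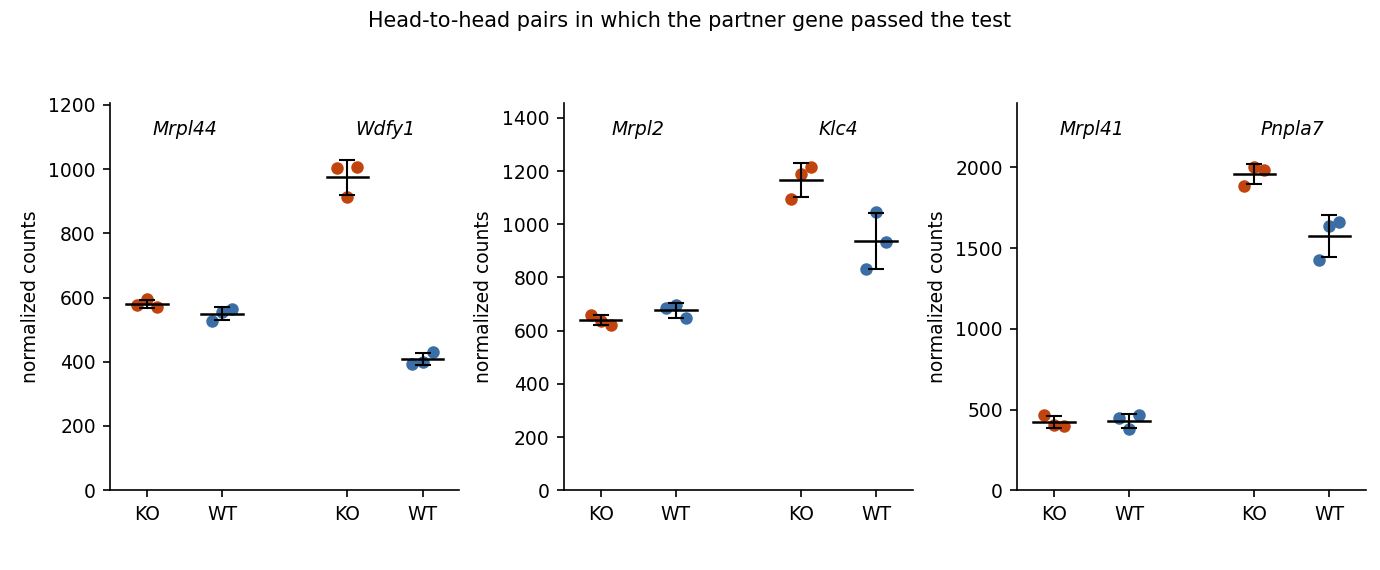
Normalized counts of 3 head-to-head pairs whose partner gene passed the test, with the mitoribosomal gene on the left of each panel, its partner on the right and Lcn10-KO left of WT for each gene. Points are libraries, the long line is the mean and the error bar 1 SD (n = 3 each). *Wdfy1* reaches 239% of its WT level, while the Lcn10-KO values of *Mrpl44* (571 to 595) lie next to those in WT (526 to 566).

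Shared exons reach beyond these pairs. The exons of 33 of the 78 members overlap those of another annotated gene, 28 on the opposite and 8 on the same strand, some on both. Of the 23 overlapping genes that were tested, 1 passed the test, *Wdfy1*, beside the same 9.84% of all genes. Reads of such genes may be shared, and the values of these 33 members are less certain for that reason.

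The rest of the mitochondrial translation apparatus was read from fixed lists, and few of its genes passed the test. Of 5 mitoribosomal proteins with other symbols, 1 fell, beside 5.14% of all genes tested, and 4 did not pass. *Ptcd3*, a pentatricopeptide repeat protein of the small subunit, had 806, 717 and 722 normalized counts in Lcn10-KO, all below the 974, 855 and 864 in WT. Its log2 fold change was −0.26 ± 0.07 (SE, limma adjusted p = 0.0317). The call was lost without Lcn10-KO replicate 2 (adjusted p = 0.146), without Lcn10-KO replicate 3 (0.129) and without the trend (0.145). *Dap3*, a GTP-binding protein of the small subunit, had 808, 844 and 792 normalized counts in Lcn10-KO and 934, 822 and 889 in WT, which overlapped (−0.11 ± 0.06, SE, limma adjusted p = 0.259). The median over the 5 genes was −0.11, against 0.00 over all genes tested.

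The median log2 fold change was 0.00 over 32 genes of mitoribosome assembly and rRNA modification. Of these, 0 rose and 1 fell, against 4.70% and 5.14% of all genes tested. This was *Noa1*, a GTPase needed for the assembly of the small subunit. It had 332, 329.7 and 338 normalized counts in Lcn10-KO, against 429.7, 408 and 368 in WT, and the groups did not overlap. The log2 fold change was −0.27 ± 0.08 (SE, limma adjusted p = 0.0456), close to the threshold, and 7 of 15 alternatives lost the call, with adjusted p from 0.0587 to 0.16. These were the fits without the trend, without the filter, with any 1 of the 3 Lcn10-KO libraries left out (0.117, 0.16 and 0.12 for replicates 1, 2 and 3) and without WT replicate 1 (0.103) or 2 (0.0739).

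No gene of the other mitochondrial lists passed by limma, against 9.84% of all genes tested. At an unadjusted p under 0.05, 12.4% of all genes tested were higher and 13.9% lower. Translation factors such as *Tufm*, which brings aminoacyl-tRNA to the ribosome, had 0 of 18 called, 0 higher and 2 lower at an unadjusted p under 0.05, and a median of −0.06. *Tufm* itself averaged 1302 ± 90.4 normalized counts in Lcn10-KO and 1406 ± 50.5 in WT (SD, n = 3 each, limma adjusted p = 0.233). Mitochondrial tRNA synthetases had 0 of 20 called, with 0 higher and 1 lower unadjusted and a median of −0.08. Genes of mitochondrial DNA transcription and RNA processing had 0 of 24 called, with 0 higher and 5 lower unadjusted and a median of −0.06. *Tfam*, which packages mitochondrial DNA and starts its transcription, averaged 700.01 ± 13.7 normalized counts in Lcn10-KO and 701 ± 10.2 in WT (SD, n = 3 each, limma adjusted p = 0.982). Genes of protein import had 0 of 20 called, with 0 higher and 4 lower unadjusted and a median of −0.05. Median fold changes of these lists were all slightly negative, as was that of the members. The 15 genes and rRNAs of mitochondrial DNA had no row in the expression table under the symbols searched, so they could not be analysed here.

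Regulators of mitochondrial biogenesis had 0 of 16 tested genes called, against 9.84% of all genes tested. At an unadjusted p under 0.05, 1 was higher and 2 were lower, against 12.4% and 13.9% of all genes. The lower ones missed the threshold by little. *Myc*, a driver of ribosome production and growth, had 860.1, 852 and 811 normalized counts in Lcn10-KO, all below the 1405, 1020 and 1053 in WT, with the highest value in WT replicate 1 (log2 fold change −0.45 ± 0.12, SE, limma adjusted p = 0.0528). *Pprc1*, a coactivator of the PGC-1 family, had 896, 929 and 973 normalized counts in Lcn10-KO and 1384, 1139 and 1042 in WT, again highest in WT replicate 1 (−0.34 ± 0.09, SE, limma adjusted p = 0.0502). Without WT replicate 1 both were called lower, at −0.30 for *Myc* (limma adjusted p = 0.00161) and −0.22 for *Pprc1* (limma adjusted p = 0.0186), as were *Myc* without WT replicate 2 (0.0232) and *Pprc1* without WT replicate 3 (0.018), so these regulators lie at the edge of the test. *Myc* is also the gene of a factor whose motif, the E-box, was searched. Genes of factors for the NRF1, ETS and YY1 motifs stayed near WT. Their log2 fold changes were −0.01 ± 0.08 for *Nrf1*, 0.00 ± 0.05 for *Gabpa*, the DNA-binding subunit of GABP, and −0.04 ± 0.04 for *Yy1* (SE, limma adjusted p = 0.936, 0.981 and 0.655). *Ppargc1a*, the gene of PGC-1 alpha, averaged 2.39 ± 1.73 normalized counts in Lcn10-KO and 1.69 ± 0.558 in WT (SD, n = 3 each) and was below the filter.

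Cytosolic ribosomal proteins, which build the ribosomes outside mitochondria, were set beside the family. Of 85 such genes 82 were tested. By limma 0 were lower in Lcn10-KO, against 5.14% of all genes tested, and 1 was higher, against 4.70%. This was *Rps14*, named after its values were seen, with 12006, 12214 and 11302 normalized counts in Lcn10-KO and 10384, 10535 and 10871 in WT (log2 fold change 0.16 ± 0.04, SE, limma adjusted p = 0.0353), a call that was lost without Lcn10-KO replicate 1 (0.13), 2 (0.176) or 3 (0.0608) and without the trend (0.154). The median log2 fold change was 0.04 with 65 of 82 genes positive, against −0.03 with 27 of 78 positive in the mitochondrial family. The sign of either median held in all 15 alternatives, from 0.0159 to 0.0747 for the cytosolic and from −0.0539 to −0.0086 for the mitochondrial genes. The difference between the families was not tested.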

How the data were processed

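RNA of untreated bone marrow-derived macrophages was measured in 3 Lcn10-KO and 3 WT libraries, grouped by the genotype in the labels. The deposited table holds a signal, read counts as the authors scaled them. The submitters' processing notes name bcl2fastq, STAR 2.6.1a, Salmon 0.11.2, DESeq2 and the build mm10, without role or order, and no source used here states the counting or strand settings. In low genes 86.2% to 90.5% of values were whole multiples of the value of 1 read within 0.1 reads, too few for a count test.

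Genes with at least 10 in at least 3 libraries were fitted as log2(value + 1), which shrinks the fold changes of low genes, with limma 3.58.1 in R 4.3.3 (genotype only, mean-variance trend, robust estimation) and Benjamini-Hochberg adjustment over 12091 genes at 0.05. The procedure was checked on simulated data in which 200 of 12091 genes were changed. It recovered 66% of 1.25-fold, 80% of 1.5-fold, 98% of 2-fold and 100% of 4-fold changes. Of its 184 calls 12 were false, and without any change it made 0 calls. The simulation gave all genes the same spread beyond counting noise, so recovery in the real libraries may differ. Positions and principal transcript lengths came from GENCODE for GRCm38 (24467 of 24972 symbols matched) and promoters from RefSeq for GRCm38.p6.

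The members and lists were chosen with earlier results of these data known. Named were called members, the 5 highest and 5 lowest fold changes and per-kb levels, and called genes of the pathway lists. Others were named for a count, a pair or a role in the text. The lists covered mitoribosomal proteins with other symbols, translation factors, assembly, tRNA synthetases, mitochondrial transcription and RNA processing, biogenesis regulators, import, mitochondrially encoded genes, cytosolic ribosomal proteins and cell type markers. Subunit classes came from textbook knowledge. Alternatives were 2 other normalizations, no trend, 2 filters, 2 pseudocounts, a replicate block, removal of GC and length trends and each library left out.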

Additional observations from a re-analysis of the deposited data

How the results depend on the processing

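The count of members called lower in Lcn10-KO was 0 with all libraries and 0 to 3 when each library was left out, with the 3 found without WT replicate 2. No member was called higher in any of the 15 alternatives. The median fold change of the members stayed negative and moved by less than the SD of the members' median deviations over the WT libraries (0.0428). Over all genes, 1190 calls became 14 in limma without the trend and 175 to 1664 when each library was left out, and the causes were not tested. The labels do not say whether same-numbered libraries are paired, and the values did not settle it. Deviations of same-numbered libraries correlated weakly, at 0.0382, 0.0734 and 0.014 for replicates 1, 2 and 3. Each Lcn10-KO library correlated best with the WT library of its own number. WT replicate 3, however, correlated best with Lcn10-KO replicate 1 (0.0262). A replicate block called 1607 genes and 2 members, *Mrpl12* (adjusted p = 0.0442) and *Mrps18b* (adjusted p = 0.0153), both lower, and it also called *Myc* (adjusted p = 0.00629). Of 270 alternative values of 18 named genes, 235 kept their direction and their side of the threshold, 22 lost the call (7 for *Noa1*, 5 for *Klc4*, 4 for *Rps14*, 3 each for *Pnpla7* and *Ptcd3*), 13 gained it (5 for *Pprc1*, 4 for *Myc*, 2 each for *Mrpl12* and *Mrps18b*) and 0 reversed. With 3 libraries per genotype, the 95% intervals of the members reached a median of 0.14 to either side on the log2 scale, so changes well below that in a single gene were not detectable. Larger changes could be missed as well, since the call rests on p-values adjusted over all genes. *Mrpl34*, at 0.21 with an interval of 0.07 to 0.35, was not called (limma adjusted p = 0.0594).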
